A study of Mus musculus with 8 samples.

Results

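The postsynaptic scaffold genes Homer1, Homer2, Homer3, Shank1, Shank2, Shank3, Dlg4 and Dlgap1 were followed in RNA of single nuclei from mouse hippocampi. They were chosen by symbol, and all 8 were among the 30211 genes listed for each library. The series held 8 libraries, 1 per mouse, in 4 groups. The 3 WT and 3 GKO mice were 7 mo old, and 1 J20;WT and 1 J20;GKO mouse were 6 mo old. The labels give C57BL/6 for all of them and the study's methods C57BL/6N. GKO stands for a constitutive knockout of Gsap, the gene of gamma-secretase activating protein, obtained from a floxed allele with CMV-Cre. J20 mice carry a human APP transgene with the Swedish and Indiana mutations under the PDGFB promoter, in both of their groups. The question the design poses for these genes is whether their expression differs between hippocampal cell types, between GKO and WT, and between the J20 mice.

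At an excitatory synapse the scaffold is layered. PSD-95, the product of Dlg4, lies beneath the membrane and holds glutamate receptors and adhesion proteins, SAPAP1, the product of Dlgap1, binds PSD-95 from below, and the Shank proteins bind SAPAP. Homer proteins cross-link Shank to metabotropic glutamate receptors, inositol trisphosphate receptors and ryanodine receptors. Homer1 also makes a short transcript, Homer1a, which neuronal activity induces and which lacks the cross-linking part, and a count per gene cannot tell it from the long form.

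Each library held between about 21020200 and 43311000 unique molecular identifiers (UMIs, counts of captured RNA molecules) in 2731 to 5252 nuclei, with a median of 4579 to 6438.5 UMIs per nucleus. Any pair of libraries shared 2 to 21 cell barcodes. Levels are given in CPM, counts of a gene per 1000000 UMIs summed over the nuclei of 1 type in 1 mouse. The nuclei were clustered without the 8 genes and without the other genes of the postsynaptic list used below. The names of the types come from marker genes and are not the annotation of the study. They covered 13671 excitatory nuclei (5636 dentate granule, 2949 CA1, 1508 CA3 and 2185 of subiculum or cortex, and the rest without a subtype name), 1731 inhibitory, 7071 oligodendrocyte, 2762 astrocyte, 2247 microglia, 1081 oligodendrocyte precursor (OPC), 418 mural or fibroblast, 226 Cajal-Retzius and 72 endothelial nuclei. Gsap itself differed little, with 22.6 ± 0.358 CPM over all nuclei of the WT mice (SD, n = 3) and 21.2 ± 1.21 for libraries labelled GKO (SD, n = 3). Each WT value lay above each GKO value, by as little as the step from 22.3 to 22.0 CPM, while the J20;WT mouse had 19.9 CPM and the J20;GKO mouse 21.1. The allele removes part of the exons of Gsap, and a count over the whole gene is a weak check of the labels. The study reported lower Gsap mRNA in GKO hippocampus by quantitative RT-PCR, with primers at several exons. Why the counts here differed so little was not tested.

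The genes differ in size, from 11.5 kb for Homer3 to 852.3 kb for Dlgap1 on GRCm38, so that levels are compared between cell types and mice within a gene and not between genes. Homer1 (ENSMUSG00000007617) lies on the plus strand at chr13:93299635-93405129, Homer2 (ENSMUSG00000025813) on the minus strand at chr7:81600481-81707527 and Homer3 (ENSMUSG00000003573) on the plus strand at chr8:70282827-70294361. Shank1 (ENSMUSG00000038738) lies at chr7:44310253-44360572, Shank2 (ENSMUSG00000037541) at chr7:144001928-144424494, Shank3 (ENSMUSG00000022623) at chr15:89499623-89560261, Dlg4 (ENSMUSG00000020886) at chr11:70016942-70047522 and Dlgap1 (ENSMUSG00000003279) at chr17:69969073-70821413, all on the plus strand. The promoters of the 3 Homer genes are shown because Homer1 is known as an activity-induced gene. The RefSeq table for GRCm38.p6 held 11 promoter windows of 6 of the 8 genes, from 250 bases before a transcription start to 50 bases after it. The windows below are 5′ to 3′ on the gene's own strand. Capitals mark TGACG, the core of the cAMP response element, searched on both strands.

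Homer1, chr13:93303507-93303806, plus strand: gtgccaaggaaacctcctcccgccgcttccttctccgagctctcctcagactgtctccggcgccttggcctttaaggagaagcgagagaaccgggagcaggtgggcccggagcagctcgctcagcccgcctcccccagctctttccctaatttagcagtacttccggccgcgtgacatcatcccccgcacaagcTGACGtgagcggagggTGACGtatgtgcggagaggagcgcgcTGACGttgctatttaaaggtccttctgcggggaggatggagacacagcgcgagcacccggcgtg
Homer2, chr7:81706876-81707175, minus strand: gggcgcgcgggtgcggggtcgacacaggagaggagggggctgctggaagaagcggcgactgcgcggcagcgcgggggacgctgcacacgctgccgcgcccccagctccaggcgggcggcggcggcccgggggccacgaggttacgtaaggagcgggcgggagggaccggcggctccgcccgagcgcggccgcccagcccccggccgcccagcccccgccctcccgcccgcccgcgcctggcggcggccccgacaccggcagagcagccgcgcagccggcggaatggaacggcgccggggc
Homer3, chr8:70282749-70283048, plus strand: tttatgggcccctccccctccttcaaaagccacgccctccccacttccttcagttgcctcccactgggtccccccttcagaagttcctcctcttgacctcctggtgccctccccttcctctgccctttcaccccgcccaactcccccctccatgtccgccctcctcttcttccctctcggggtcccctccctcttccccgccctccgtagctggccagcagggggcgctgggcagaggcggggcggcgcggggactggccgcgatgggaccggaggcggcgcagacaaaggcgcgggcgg

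The Homer1 window held 3 matches to TGACG, and the Homer2 and Homer3 windows held 0. Of 32851 promoter windows of the same length, 20.8% held at least 1 match and 1.035% held 3 or more. The other windows of Homer1 and Homer2 had 0 matches. Among the windows of the remaining genes, 1 window of Dlg4 held 1 match and the rest held 0. The full palindrome TGACGTCA was in none of the member windows and in 1.79% of all. A match describes the letters and was not tested as a binding site.

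Homer1 was highest in pyramidal neurons. It averaged 277 ± 64.6 CPM (SD, n = 8) in CA1, 276 ± 71.8 in subiculum or cortex, 193 ± 26.2 in CA3, and 71.2 ± 13.0 in dentate granule neurons. In CA1 the WT mice had 198, 369 and 309 CPM, the GKO mice 267, 227 and 366, J20;WT 236 and J20;GKO 242. In dentate granule neurons the WT mice had 67.8, 87.8 and 91.9 CPM, the GKO mice 63.1, 62.3 and 76.7, J20;WT 56.0 and J20;GKO 63.8. The lowest CA1 value was thus above the highest dentate value, with no overlap over the 8 mice. Between these types 42.8% of all genes were called in the fit described below. Inhibitory neurons, at 87.9 ± 20.0 CPM, stood with OPCs (84.7 ± 32.9) and dentate granule neurons rather than with the pyramidal types.

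**Figure D1:**
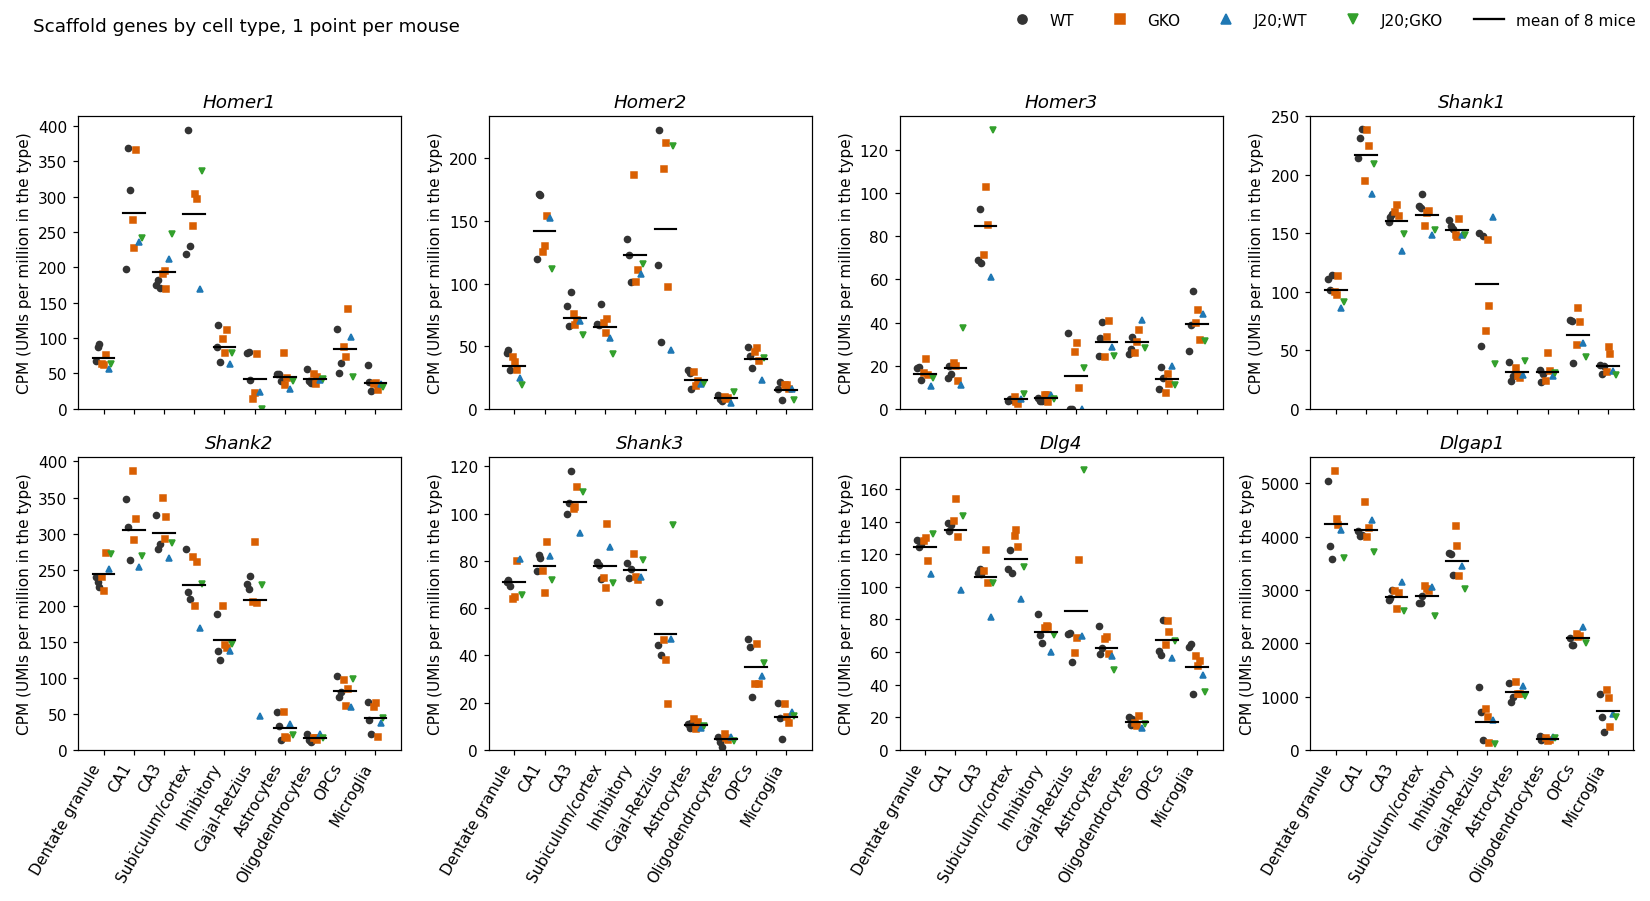
CPM of each gene (y axis, scaled to the UMIs of the type) in 10 named cell types (x axis). Each point is 1 mouse, with the group given by colour and shape, and bars are means of the 8 mice. Homer1 is high in CA1 and in subiculum or cortex, Homer2 also in inhibitory neurons, and Homer3 stands out in CA3 alone among the neurons shown.

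Homer2 had another order. It averaged 142 ± 23.4 CPM (SD, n = 8) in CA1 and 123 ± 28.3 in inhibitory neurons, against 72.9 ± 10.6 in CA3, 65.0 ± 11.8 in subiculum or cortex and 34.5 ± 10.0 in dentate granule neurons. In inhibitory neurons the WT mice had 136, 123 and 101 CPM, the GKO mice 187, 102 and 111, J20;WT 108 and J20;GKO 116, so that a single GKO mouse was well above the rest. Cajal-Retzius nuclei, an early-born Reelin-positive cell type, averaged 144 ± 73.9 CPM from 122 UMIs in all, and their mice spread from 46.7 to 223 CPM.

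Among the named neuronal types Homer3 was highest in CA3. It averaged 85.0 ± 22.9 CPM (SD, n = 8) in CA3, 19.1 ± 8.30 in CA1, 16.4 ± 3.96 in dentate granule neurons, 4.87 ± 1.39 in inhibitory neurons and 4.38 ± 1.53 in subiculum or cortex. In CA3 the WT mice had 69.2, 92.8 and 67.8 CPM, the GKO mice 71.2, 103 and 85.3, J20;WT 61.1 and J20;GKO 129. All 8 CA3 values were above the highest CA1 value of 37.6 CPM. Between CA1 and CA3 32.4% of all genes were called in the fit described below. The 3′ end of Homer3 overlaps Ddx49, an RNA helicase gene on the opposite strand, by 1496 bases, and whether strand was used in the counting is not stated in the sources used here. Ddx49 itself was level between the types, at 24.1 CPM in CA3, 23.5 in CA1, 25.2 in dentate granule and 22.9 in inhibitory neurons, pooled over mice.

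The Shank genes had flatter profiles. Shank1 averaged 217 ± 20.3 CPM (SD, n = 8) in CA1, 165 ± 11.9 in subiculum or cortex, 160 ± 12.4 in CA3, 153 ± 6.32 in inhibitory and 102 ± 10.4 in dentate granule neurons. Shank2 averaged 305 ± 45.8 CPM in CA1, 301 ± 28.6 in CA3, 244 ± 19.7 in dentate granule, 229 ± 37.8 in subiculum or cortex and 152 ± 26.7 in inhibitory neurons. Shank3 was highest in CA3 among the named neuronal types with at least 10 nuclei in each mouse, at 105 ± 7.92 CPM, and lay between 70.8 and 77.9 CPM in dentate granule, CA1, inhibitory and subiculum or cortex neurons. In CA3 the WT mice had 99.99, 104 and 118 CPM of Shank3, the GKO mice 102, 103 and 111, J20;WT 91.9 and J20;GKO 109.

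Dlg4 spanned 106 ± 11.7 CPM (SD, n = 8) in CA3 to 135 ± 16.2 in CA1 among the excitatory types and 72.1 ± 7.07 in inhibitory neurons. Dlgap1 averaged 4246 ± 621 CPM in dentate granule and 4121 ± 275 in CA1 neurons, 3552 ± 373 in inhibitory neurons, 2884 ± 197 in subiculum or cortex and 2874 ± 187 in CA3. Dlgap1 is long and nuclear RNA is largely unspliced, and whether intronic reads were counted is not stated.

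Neighbouring types in the order of each gene were compared within mice, over the 11 types with at least 10 nuclei in each mouse, with a 2-sided exact sign-flip permutation test on log2(CPM + 1). Of 80 pairs, 19 passed, each with the higher type ahead in 8 of 8 mice (exact permutation p = 0.00781, the smallest that 8 mice allow, and 0.0329 after Benjamini-Hochberg adjustment over the 80). With any 1 of the 8 mice left out, 0 of the 80 passed. The smallest exact permutation p was then 0.0156, reached by 18 to 24 pairs, with adjusted values of 0.0521 to 0.0694, so that the calls named next rest on having all 8 mice. For Homer1 the step from CA3 to inhibitory neurons passed, and CA1 and subiculum or cortex did not differ beyond their spread (higher in CA1 in 4 of 8 mice, exact permutation adjusted p = 0.95). For Homer2 the steps from inhibitory neurons to CA3 and from subiculum or cortex to OPCs passed. For Homer3 the step from CA3 to the next type, microglia, passed, and so did that from OPCs to inhibitory neurons. For Shank1 CA1 stood above subiculum or cortex and dentate granule neurons above OPCs. For Shank2 the pair of CA1 and CA3 did not differ beyond its spread (higher in CA1 in 3 of 8 mice, exact permutation adjusted p = 0.845), and 4 steps passed, from CA3 to dentate granule neurons, from inhibitory neurons to OPCs, from microglia to astrocytes and from astrocytes to oligodendrocytes. For Shank3 only the top and the bottom steps passed, CA3 above subiculum or cortex and astrocytes above oligodendrocytes. For Dlg4 subiculum or cortex stood above CA3 and microglia above oligodendrocytes. Dlgap1 had 4 such steps, from CA1 to inhibitory neurons, from there to subiculum or cortex, from CA3 to OPCs and from OPCs to astrocytes.

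Contrasts between types were then fitted over all genes with edgeR's quasi-likelihood test, with the mouse as a block and 8 mice in each. A gene was called where its log2 fold change exceeded 0.3 in size and its Benjamini-Hochberg adjusted p was under 0.05. Between CA1 and dentate granule neurons, 42.8% of 15260 genes were called, 22.6% higher in CA1 and 20.2% lower. Of the 8 scaffold genes 4 were called, all higher in CA1. Homer2 had a log2 fold change of 2.08 (SE 0.16, adjusted p = 6.6e-06), Homer1 of 1.99 (SE 0.07, adjusted p = 4.8e-12), Shank1 of 1.13 (SE 0.05, adjusted p = 8.7e-12) and Shank2 of 0.35 (SE 0.07, adjusted p = 3.5e-04). Homer3, Shank3, Dlg4 and Dlgap1 lay between 0.01 and 0.18. Without the first GKO mouse, Shank2 was at 0.299 and under the threshold of size.

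Between CA3 and dentate granule neurons, 48.4% of 14917 genes were called, 24.8% higher in CA3 and 23.6% lower, and 7 of the 8 scaffold genes. Of these, 6 were higher in CA3. The log2 fold change was 2.38 for Homer3 (SE 0.11, adjusted p = 6.5e-10), 1.48 for Homer1 (SE 0.13, adjusted p = 7.5e-06), 1.12 for Homer2 (SE 0.13, adjusted p = 1.8e-05), 0.70 for Shank1, 0.61 for Shank3 and 0.34 for Shank2. Dlgap1 was lower in CA3, at -0.51 (SE 0.07, adjusted p = 4.4e-06). Dlg4 was at -0.19, below the threshold of size, and Shank2 fell just under it without the first GKO mouse or without the filter on low counts.

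Between CA1 and CA3, 32.4% of 14562 genes were called, 15.2% higher in CA1 and 17.2% lower, and 7 of the 8 scaffold genes. Homer3 was lower in CA1 by a log2 fold change of -2.21 (SE 0.09, adjusted p = 5.3e-14) and Shank3 by -0.45 (SE 0.05, adjusted p = 8.9e-08). Homer2 was higher in CA1, at 0.95 (SE 0.08, adjusted p = 7.5e-08), as were Dlgap1 at 0.50, Shank1 at 0.42 and Dlg4 at 0.33. Homer1 was at 0.49 (SE 0.16, adjusted p = 0.0402), and leaving out any 1 of 5 mice (WT mouse 2 or 3 or any GKO mouse) ended this call, with adjusted p from 0.0523 to 0.0897. Shank2 was at -0.0023 (SE 0.041, adjusted p = 0.973).

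Inhibitory neurons against all excitatory neurons had 44.4% of 17410 genes called, 22.5% higher and 22% lower, and 5 of the 8 scaffold genes. Homer2 was higher in inhibitory neurons, at 0.46 (SE 0.12, adjusted p = 0.00946), a call that was lost in the fit of the 6 WT and GKO mice alone (0.43, adjusted p = 0.0556). Both sides pool unlike types. Homer2 averaged 83.7 CPM in excitatory neurons, with 34.5 in dentate granule and 142 in CA1 neurons, beside 123 in inhibitory neurons. Of the inhibitory clusters described below, those led by Sst (58.7 CPM) and by Tac1, Btbd11 and Pvalb (67.8) were under the excitatory mean.  Those led by Vip (194) and by Hapln1 (180) were above it. Homer3 was lower at -2.43 (SE 0.14, adjusted p = 3.4e-12), Homer1 at -1.19 (SE 0.07, adjusted p = 2.9e-10), Shank2 at -0.92 (SE 0.06, adjusted p = 2.2e-11) and Dlg4 at -0.81 (SE 0.05, adjusted p = 2.2e-11). Shank1, Shank3 and Dlgap1 lay between -0.21 and -0.10. The types were clustered on 2773 genes that are among all genes tested, and the shares of all genes called are given as background to the members' counts.

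**Figure D2:**
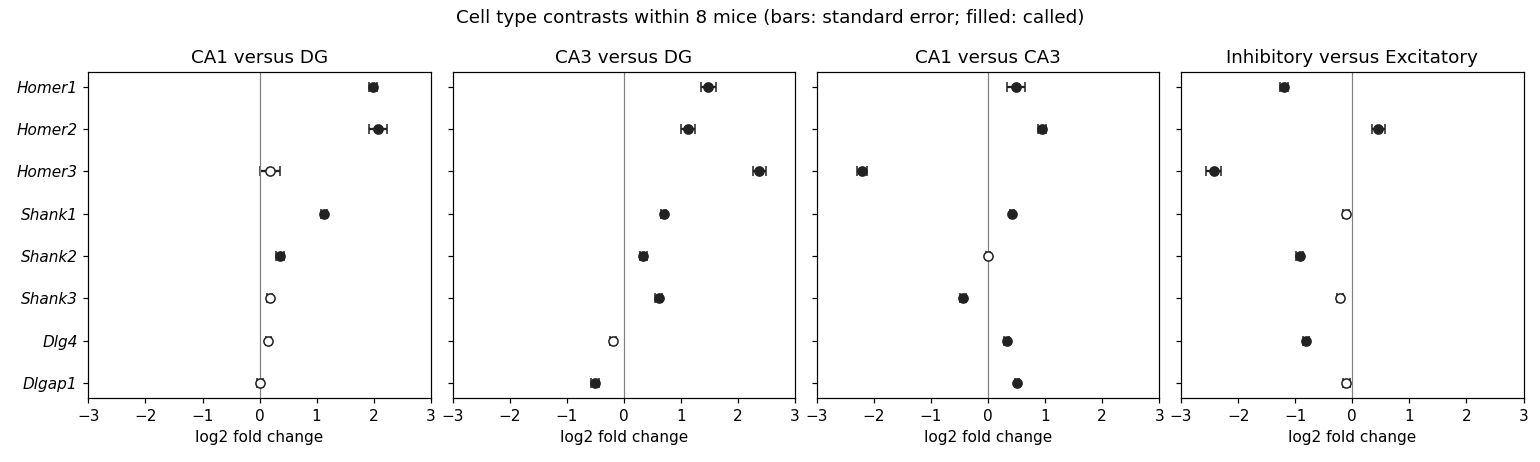
Log2 fold change (x axis) of each scaffold gene (y axis) in 4 contrasts of cell types within 8 mice. Bars are standard errors, filled points were called and open points were not. Homer3 is higher in CA3 both in the contrast of CA1 with CA3 (-2.21) and in that of CA3 with dentate granule neurons (2.38). Homer2 is the only gene called higher in inhibitory neurons than in all excitatory neurons pooled, although its CA1 mean was above that of inhibitory neurons.

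The rest of the postsynaptic list, 51 genes had 49 that were measured and tested. Between CA1 and dentate granule neurons 13 were higher (26.5%, beside 22.6% of all genes), 12 lower (24.5%, beside 20.2%) and 24 not called, with a median log2 fold change of 0.07 beside 0.01 for all genes. Arc, an activity-regulated gene whose product acts in receptor endocytosis, was highest at 3.90, and Itpr1, the inositol trisphosphate receptor that Homer binds, was at 0.97, Dlgap4 at 0.96 and Iqsec1 at 0.72. At the other end stood Oprm1, the mu opioid receptor, at -2.75, Shisa9 at -2.03 and the ryanodine receptor Ryr2 at -0.84. Among the 8 genes listed here as Homer ligands 3 were higher and 3 lower. Oprm1 is among these lower ones by its place in the list, and its binding to Homer was not tested. Between CA3 and dentate granule neurons 8 were higher (16.3%, beside 24.8% of all genes) and 17 lower (34.7%, beside 23.6%), with a median of -0.15 beside -0.01 for all genes. Arc (2.91), Dlgap4 (0.82), Nlgn1 (0.76) and Cacng2 (0.58) rose most, and Oprm1 (-3.32), Shisa9 (-2.88), Cacng3 (-1.47) and the Shank partner Baiap2 (-1.02) fell most.

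Between CA1 and CA3 17 genes of the list were higher (34.7%, beside 15.2% of all genes) and 4 lower (8.16%, beside 17.2%), with a median of 0.25 beside 0.01 for all genes. Itpr1 (1.85), Cacng3 (1.12), Arc (0.99) and Shisa9 (0.81) were highest, and the lower genes included Cacng2 (-1.38), Dnm3 (-0.71) and Ryr2 (-0.40). The auxiliary AMPA receptor subunits Cacng2 and Cacng3 thus stood on opposite sides. In inhibitory against excitatory neurons 5 of the 49 were higher (10.2%, beside 22.5% of all genes) and 30 lower (61.2%, beside 22%), with a median of -0.46 beside 0.01. Baiap2 (-2.59), Nrgn (-2.57), Arc (-2.45) and Camk2a (-1.55) fell most, of which Nrgn and Camk2a are also markers that named the excitatory type. Dnm3 (1.39), Cacng2 (1.19), Iqsec1 (0.90) and Oprm1 (0.43) rose most. In the postsynaptic signalling group 8 of 9 were lower and 1 higher. Both markers, Nrgn and Camk2a, are among these 8 and among the 30, so that part of these counts follows from the naming.

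Some scaffold genes also varied between clusters of 1 type. The inhibitory nuclei fell into 4 clusters. Homer2 was at 194 CPM (145.8 to 314.7 over the 8 mice) in the cluster led by Vip, Igf1 and Dlx6os1 and at 180 CPM (137 to 239) in that led by Hapln1, Gad2 and Fgf13, against 58.7 CPM (37.9 to 83.5) in the cluster led by Sst and 67.8 CPM (50.8 to 87.7) in that led by Tac1, Btbd11 and Pvalb. The ranges of the former pair did not overlap with those of the latter. Shank2 was on the same side, at 223 and 197 CPM against 106 and 99.1, although the ranges of the Hapln1 cluster (156 to 250) and the Sst cluster (73.3 to 173) overlapped. Dlgap1 was highest in the Pvalb cluster, at 5269 CPM (4640 to 6226), and lowest in the Vip cluster, at 2160 CPM (1608 to 2545). Shank1, by comparison, was between 131 and 165 CPM in all 4 clusters. These differences between clusters were not tested, and the share of all genes without overlap between the same clusters was not counted.

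The 2 CA1 clusters differed in Homer2, at 178 CPM (145.4 to 210.3) in the larger and 87.6 CPM (53.4 to 112) in the smaller, led by Dcn, with no overlap over the 8 mice. Homer1 was at 299 and 253 CPM there, with overlapping ranges. In CA3, the larger cluster had 94.2 CPM of Homer3 (66.7 to 143.5) and the smaller one, led by Col6a1, 33.9 CPM (14.7 to 62.6), again with no overlap. The share of all genes without overlap between these clusters was not counted either, and the differences were not tested. An excitatory cluster of 1026 nuclei led by Npsr1 and Pdzrn3, which the markers gave no subtype name, combined Homer2 at 160 CPM and Shank3 at 113 CPM with Homer3 at 3.94 CPM. In subiculum or cortex, the cluster led by Nts and Fn1 had 356 CPM of Homer1 and 3968 CPM of Dlgap1, and that led by Rai14 and Ctgf 292 and 2124 CPM. The other two were lower in Homer1, at 141 CPM (98.5 to 194) in the cluster led by Vwc2l, Cntn6 and Skap1 and 197 CPM (133 to 268) in that led by Fermt1 and Plch1, with Dlgap1 at 1947 and 2740 CPM.

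Glia held UMIs of all 8 genes. Free RNA and mixed nuclei can leave neuronal transcripts in any type of droplet data, and for comparison 6 neuron genes (Camk2a, Nrgn, Slc17a7, Cpne6, Itpka and Icam5) were expressed as a percent of their level in excitatory neurons. They stood at 6.28% to 16.9% in OPCs, where median depth was 3645 to 5451 UMIs per nucleus beside 7166.5 to 12897 in excitatory neurons. All 8 scaffold genes were above that range in OPCs, from 31.0% for Shank2 to 58.2% for Dlgap1. All 6 neuron genes are among the markers that named the excitatory type, so that low percents elsewhere partly follow from the naming. In inhibitory neurons they stood at 15.9% to 36.4%, with 7 of the 8 scaffold genes above. The range is therefore no upper bound on free RNA of the scaffold genes, whose part in the OPC levels was not tested. OPCs are known to receive glutamatergic synapses from neurons. Dlgap1 averaged 2097 ± 115 CPM (SD, n = 8) in OPCs, Dlg4 67.2 ± 8.95 and Shank3 35.2 ± 9.12.

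In astrocytes the neuron genes stood at 9.27% to 20.7%, and 5 of the 8 scaffold genes were above, Homer3 at 126%, Dlg4 at 53.7%, Dlgap1 at 30.7%, Homer2 at 29.1% and Homer1 at 24.9%. Shank1, Shank2 and Shank3 were within the range of the neuron genes. In oligodendrocytes, where the range was 7.50% to 28.9%, only Homer3 was above, at 120%, and Shank2, Shank3 and Dlgap1 were below it, at 6.12%, 5.45% and 5.99%. In microglia, where it was 24.8% to 42.0%, Homer3 was at 152% and Dlg4 at 43.7%, and the other 6 genes were below the range. The larger microglial clusters differed in Dlgap1, with 1170 CPM (519 to 1457 over mice) in that led by Inpp5d and 198 CPM (115 to 384) in that led by C1qa. In the same order Shank2 was at 68.6 and 10.5 CPM, Shank3 at 22.0 and 4.02 and Dlg4 at 66.0 and 34.6. Homer3 was at 36.6 CPM in the Inpp5d cluster and 39.2 CPM in the C1qa cluster. A smaller cluster of 106 nuclei under the same name, led by Lyz2, Cd74 and Mrc1, had 567 CPM of Dlgap1. The part of free RNA in these levels was not tested.

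**Figure D3:**
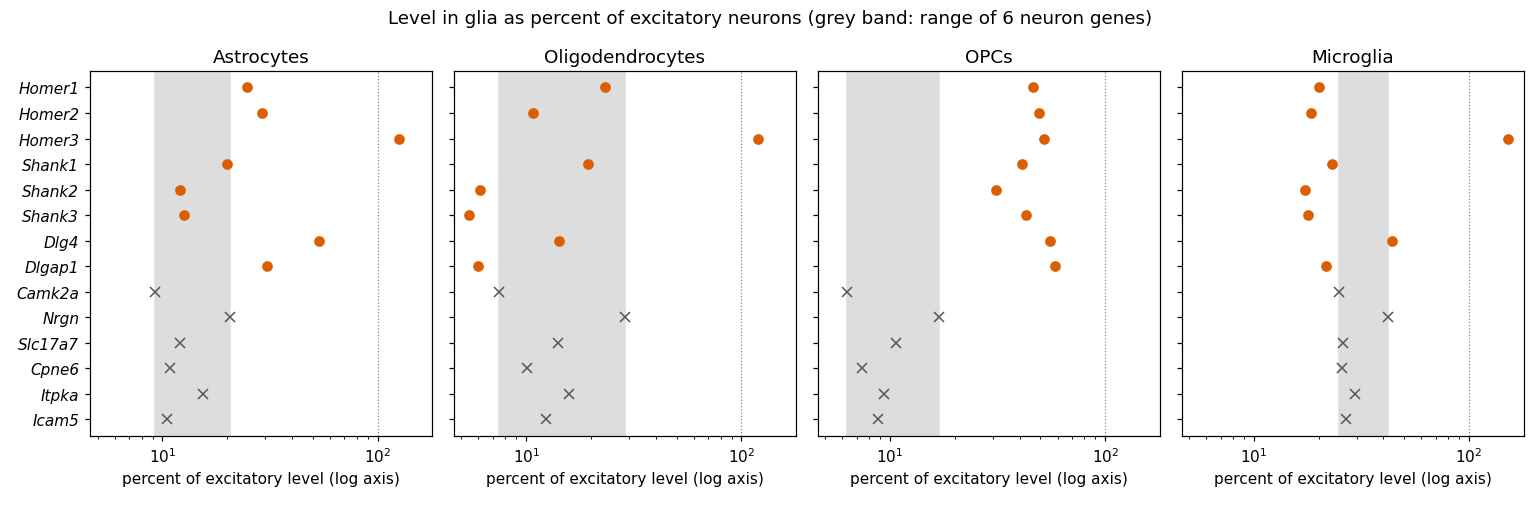
Pooled level in 4 glial types as a percent of the level in excitatory neurons (x axis, log scale) for the 8 scaffold genes (circles) and 6 neuron genes (crosses). The grey band is the range of the neuron genes and the dotted line marks 100%. All scaffold genes lie right of the band in OPCs, and Homer3 exceeds 100% in astrocytes, oligodendrocytes and microglia.

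In glia Homer3 averaged 39.1 ± 9.03 CPM (SD, n = 8) in microglia, 31.2 ± 5.59 in oligodendrocytes and 31.1 ± 6.86 in astrocytes, beside 23.3 ± 4.34 over all nuclei. The lowest oligodendrocyte value of the 8 mice was 25.4 CPM and the highest inhibitory value was 6.58 CPM. Ddx49, the gene overlapping its end, was at 24.96 CPM in oligodendrocytes, 18.3 in astrocytes and 24.8 in microglia, pooled over mice. Shank3 had its highest pooled level in endothelial cells, at 176 CPM from 42 UMIs in 72 nuclei, 210% of the excitatory level, where the neuron genes stood at 20.3% to 46.1%. The WT mice had 103, 94.8 and 478 CPM, the GKO mice 113, 368 and 156, J20;WT 716 and J20;GKO 170. All 8 values were above the mean of excitatory neurons, 83.4 CPM, but with 4 to 23 nuclei per mouse they entered no test.

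Likeness between genes was described by Pearson's r of mean log2(CPM + 1) over 12 named types, which share libraries and free RNA. Within the scaffold it was highest for Shank1 with Shank2 (0.96), Homer2 with Shank1 (0.90) and Homer2 with Shank2 (0.88), and lowest for Homer3 with Shank3 (-0.51). Among 12166 genes, those most like Homer1 were Gm15810 and Ryr3 (both 0.96) and Hnrnpll (0.95), those most like Homer2 were Gm5441, Gm38155 and Chd5 (each 0.95), and those most like Homer3 were Gm9968 (0.88), Tmco4 (0.81) and Fgfr1op2 (0.77). Genes like Shank1 included Msra and Mir124a-1hg (both 0.97), those like Shank2 included Gm14372 (0.99) and Gm20642 (0.98), and Shank3 was most like Sorbs2 (0.95), Sptan1 (0.93) and Mcf2l (0.91). Genes like Dlg4 included Iqce (0.98) and Bhlhb9 (0.96), and Dlgap1 was most like Cacng8 (0.97), 5031415H12Rik (0.96) and Spred2 (0.95). Gm14372 and 5031415H12Rik are antisense genes inside Shank2 and Dlgap1, at 29.3 and 116 CPM in excitatory neurons. The use of strand in the counting is not stated in the sources used here, and whether shared reads enter these likenesses was not tested.

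Between the libraries labelled GKO and WT, 3 mice each, no gene was called in any of 10 types by edgeR's quasi-likelihood test, 0% of 17541 genes in excitatory neurons, where 201 had an unadjusted p under 0.05. That is a smaller share than uniform p-values would give, and so it was in each of the 10 types. The test was therefore conservative here, and the lack of calls does not show a lack of change. DESeq2 called 0 genes in 9 types and 1 in oligodendrocytes. Of the scaffold genes 0 were called in any type by either tool. The 79 values that could be tested (Shank3 in microglia was below the filter on low counts) had unadjusted p-values from 0.0545 up. In excitatory neurons the log2 fold changes lay between -0.12 for Homer2 and 0.20 for Homer3, and the 95% intervals of the 8 genes reached from -0.31 to 0.57. The intervals reached from -0.52 to 0.51 in dentate granule neurons, from -0.47 to 0.53 in CA1, from -0.44 to 0.48 in CA3 and from -0.42 to 1.14 in inhibitory neurons. In the remaining types they were wider, from -1.02 to 0.59 in subiculum or cortex, from -1.49 to 0.89 in astrocytes, from -0.60 to 1.49 in oligodendrocytes, from -1.20 to 1.00 in OPCs and from -1.04 to 1.24 in microglia.

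**Figure D4:**
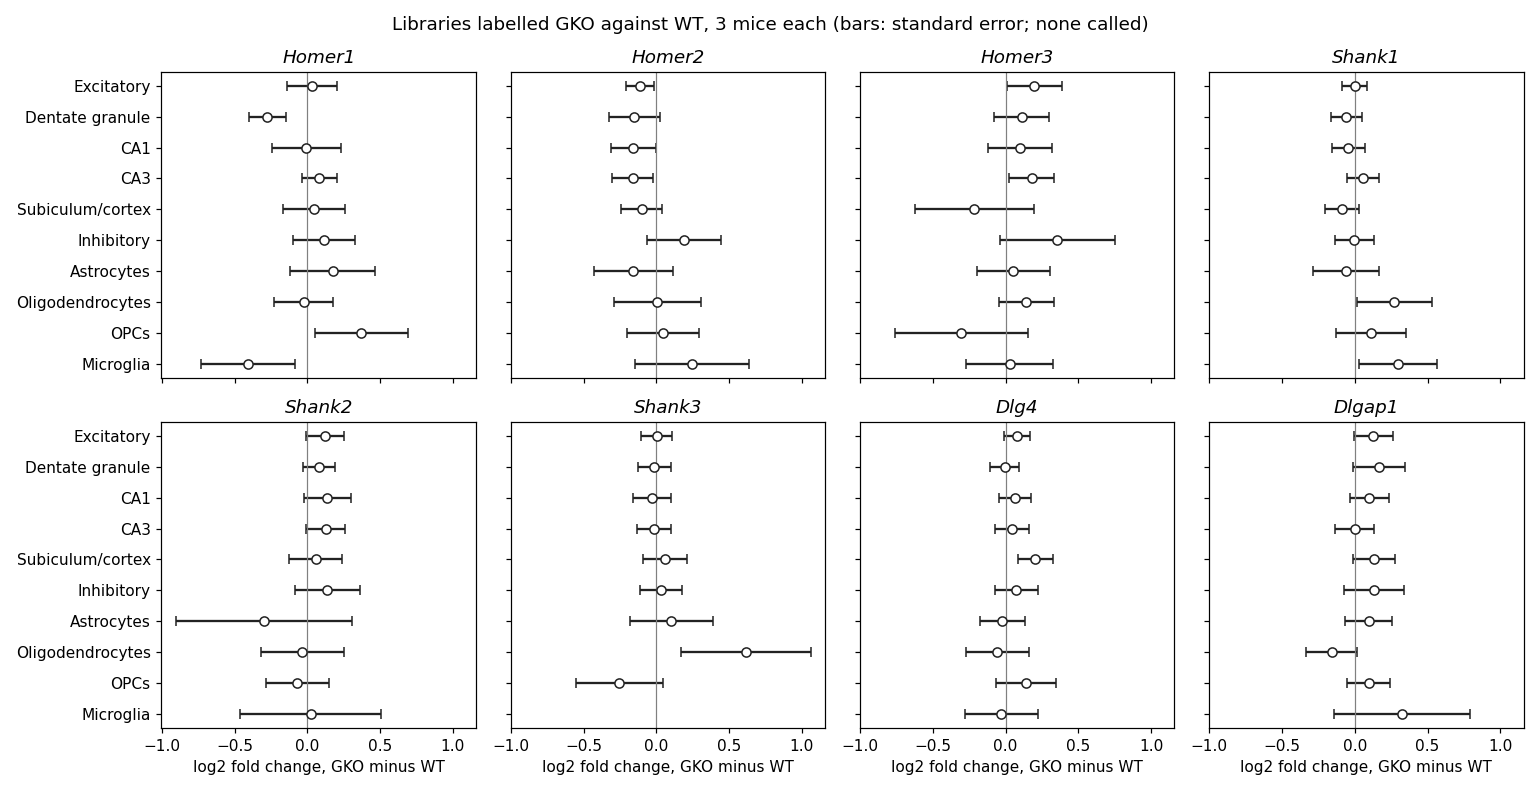
Log2 fold change of libraries labelled GKO against WT (x axis), with standard errors, for each scaffold gene in 10 cell types (y axis, 3 mice per group). No point was called.

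Homer1 in dentate granule neurons came closest. Its values, given above, overlapped between the groups, at 82.5 ± 12.9 CPM (SD, n = 3) in WT and 67.4 ± 8.07 in GKO, with a log2 fold change of -0.27 (SE 0.13, edgeR unadjusted p = 0.0545, adjusted p = 1). The normal 95% interval, from -0.52 to -0.02, left out 0, although the unadjusted p of the test was above 0.05. Normal intervals are too narrow for 3 mice per group. The GKO mouse was the lower in each of the 3 pairs of mice with the same replicate number, and with that number as a block the value was -0.27 (edgeR adjusted p = 0.999). The labels do not say that mice of the same number are paired. In CA3 Homer1 was at 0.08 (SE 0.12). The difference of the GKO effect between CA3 and dentate granule neurons was 0.35 (SE 0.14, edgeR unadjusted p = 0.0280, adjusted p = 1), and none of the 8 genes was called in any of 3 such comparisons, nor any other gene (0%). The signs of the members' GKO values were not stable, with 46 of 79 changing sign under at least 1 alternative. Of the 49 other postsynaptic genes, 0 were called and 0 had an unadjusted p under 0.05 in excitatory neurons, with a median log2 fold change of 0.03.

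Homer1 varied between mice of 1 group in CA1, and 6 activity-regulated genes were read beside it. In the WT mice, with 198, 369 and 309 CPM of Homer1, Arc was at 14.3, 39.6 and 34.2 CPM, Nr4a1 at 28.3, 59.8 and 41.8, Junb at 27.8, 45.3 and 47.2 and Npas4 at 9.82, 17.2 and 16.2. Fos was at 2.45, 8.87 and 7.97 CPM and Egr1 at 6.99, 13.0 and 13.9 in the same mice. The first WT mouse was the lowest of the 3 in each of the 7 genes. In the GKO mice, with 267, 227 and 366 CPM of Homer1, Arc was at 22.2, 25.6 and 33.2 CPM, Nr4a1 at 29.97, 30.03 and 60.7, Junb at 40.2, 38.8 and 57.8 and Npas4 at 14.04, 9.47 and 17.9. Fos was at 4.61, 5.71 and 7.50 CPM and Egr1 at 11.7, 8.65 and 13.0 there. GKO mouse 3 was highest in all 7 genes, and the lowest mouse differed between them. The J20 mice differed from this, with Homer1 nearly level between them (236 and 242 CPM) while each of the 6 genes was higher in J20;WT. With the J20;WT value first, Arc was at 35.6 and 23.4 CPM, Fos at 8.05 and 2.65, Egr1 at 12.5 and 10.8, Junb at 63.9 and 34.7, Nr4a1 at 47.3 and 33.2 and Npas4 at 16.4 and 9.15. The first WT and the first GKO library also carry another file date than the other WT and GKO libraries, and the part of that date in these values was not tested. In CA3 Homer1 was more even, between 170 and 195 CPM in the 6 WT and GKO mice.

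The J20 pair, with 1 mouse per genotype, entered no test. Its files carry different dates, so that date and genotype cannot be told apart. For each gene the log2 of the J20;GKO level over the J20;WT level was set beside the largest such ratio, in either direction, of the 6 pairs of WT or GKO mice of 1 genotype. In excitatory neurons 26.4% of 14507 genes went beyond that, and 3 of the 8 scaffold genes. The J20;WT mouse had 19.6 CPM of Homer3 (exact Poisson 95% interval 17.5 to 22.0, counting error only) and the J20;GKO mouse 37.8 (34.8 to 41.1). In the same order Dlg4 was at 96.6 (91.8 to 102) and 120 (115 to 126), and Dlgap1 at 3735 (3704 to 3765) and 3126 (3098 to 3155).

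By subtype, the Homer3 ratio was largest in CA1, with 10.9 and 37.6 CPM, a log2 ratio of 1.77, where the 6 other mice had 13.0 to 21.2 CPM. In CA3 it was 1.08, with 61.1 and 129 CPM, where the others had 67.8 to 103. In both types the J20;WT mouse was lowest and the J20;GKO mouse highest of the 8. In dentate granule neurons the Homer3 ratio of 0.44 was within that of mice of 1 genotype, 0.56. Dlg4 was lowest in the J20;WT mouse in each of the 4 named excitatory subtypes, at 108, 98.2, 81.4 and 92.8 CPM in dentate granule, CA1, CA3 and subiculum or cortex neurons, and its ratio went beyond the reference in all 4. Homer2 was instead lowest of the 8 mice in J20;GKO in all 4, at 18.7, 112, 59.0 and 43.6 CPM in that order. J20;WT had 24.3, 152, 70.0 and 56.9 CPM of it. The Homer2 ratio was within the reference in dentate granule and CA1 neurons and in excitatory neurons as a whole. Dlgap1 was lowest in J20;GKO in CA1 (3707 CPM), CA3 (2603) and subiculum or cortex (2510), with its CA1 ratio also within the reference. Homer1 went beyond the reference by most in subiculum or cortex, at 169 and 336 CPM, where the other mice had 219 to 394. By count, 1 of 8 scaffold genes went beyond the reference in dentate granule neurons (34.6% of all genes), 2 of 8 in CA1 (24.1%), 6 of 8 in CA3 (23.4%), 5 of the 7 with at least 50 UMIs in subiculum or cortex (21.9%) and 0 of 7 in inhibitory neurons (16.5%). The 6 in CA3 included Homer1, Shank1, Shank3 and Dlg4, whose Poisson intervals overlapped between the mice. Of the genes beyond the reference, 5 of the 6 in CA3 and 3 of the 5 in subiculum or cortex were higher in J20;GKO.

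**Figure D5:**
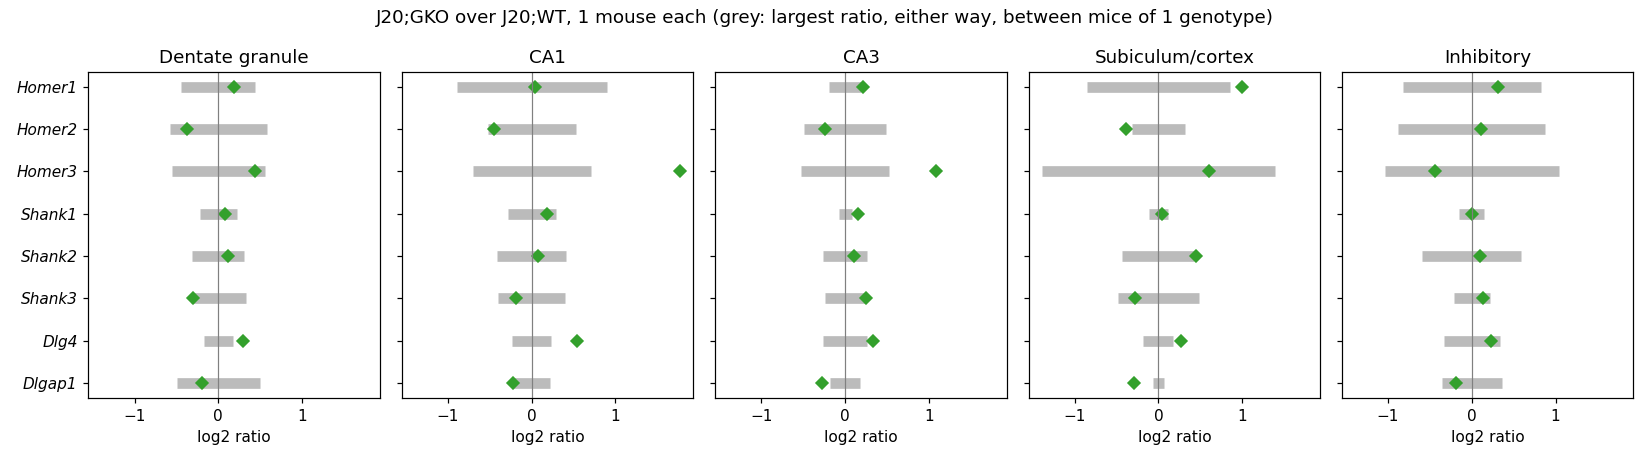
Log2 of the J20;GKO over the J20;WT level (x axis, 1 mouse each, green diamonds) for each scaffold gene in 5 neuronal types. Grey bars give the largest ratio, in either direction, between WT or GKO mice of 1 genotype. Homer3 lies outside the bar in CA1 (1.77) and CA3 (1.08), and no gene does in inhibitory neurons.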

How the data were processed

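The authors aligned single-nucleus libraries, 1 per mouse, to mm10 with Cell Ranger (3.0.2 in the file headers) and deposited raw UMI counts per gene and nucleus, with no normalization. The submitters' notes also name Seurat 3.0 and R 3.6.2. Nuclei with at most 5% mitochondrial UMIs and 200 to 7500 genes were kept, as in the methods of the study, 32041 of 33314. Counts were transformed with sctransform 0.4.2 and integrated in Seurat 5.3.0 (R 4.3.3) on 30 principal components of 2773 genes, with the 57 genes of the scaffold and the postsynaptic list held out, and clustered with 20 neighbours at a resolution of 0.8 into 39 clusters. Clusters were named where 2 marker scores named the same class and at least 3 of its markers were in 10% of nuclei or more at 2 times the median cluster. Clusters were left unnamed where over 25% of nuclei were doublet calls, where another class led, or where a class other than neurons carried over 0.5 of the neuronal Snap25 or Syt1 level of the main excitatory cluster. These rules were completed after the clusters were seen, and 8.62% of nuclei stayed unnamed. Scrublet in scanpy 1.11.5, at an expected 6%, called 1 nucleus in the first WT library and 0 in the first GKO library, where it is taken not to have worked, and 3.45% to 6.50% in the others. Doublet calls were kept in the values reported.

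Counts were summed per mouse and type and tested with edgeR 4.0.16 (TMM, filterByExpr, robust quasi-likelihood), with DESeq2 1.42.0 as an alternative. The scripts were checked on simulated counts. Thresholds are those of the study. Standard errors were derived from the F statistic, and 95% intervals are normal. The study used littermates of both sexes from in vitro fertilization, and the labels do not tie a library to a litter, so that p-values measure the spread between mice as labelled. Poisson intervals cover counting error only, and J20 ratios used a prior count of 0.5. The reported GKO fits have no term for the replicate number. Whether the numbers pair the mice is not stated. After removal of group means same-numbered libraries correlated over all nuclei (0.57, 0.18 and 0.22). Other pairs of the same file date did so as well (0.22 and 0.30). Same-numbered libraries also share a file date, and for number 1 the number and the date cannot be told apart. Numbers 2 and 3 have the same date, and there same-numbered pairs stood at 0.18 and 0.22 beside 0.22 and 0.30 for the others. Whether the number adds to the date was not tested. Gene positions are from GENCODE M21 on GRCm38.

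The scaffold genes, the lists and the tests were chosen with earlier results of these data known. Named besides the 8 genes are the list genes called, at most 4 of the largest change per direction, the 3 genes most like each member among those with at least 20 CPM in a type, and 6 activity-regulated genes. Some genes that this rule names are not reported here. Clusters and overlapping genes were named after their values were seen. Alternatives were library size alone, DESeq2, no filter on low counts, the replicate block, the file date, the J20 mice included or left out, a filter of at least 1000 UMIs and at most 1% mitochondrial UMIs, removal of doublet calls, and each mouse left out.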

Additional observations from a re-analysis of the deposited data

How the results depend on the processing

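No member was called between GKO and WT under any alternative run, with the replicate block included, and the block changed no other call of a scaffold gene. Counts of genes called between GKO and WT, 0 in each type as reported, moved in some types. Without a filter on low counts they were 1 in dentate granule neurons, 5 in CA3, 1 in subiculum or cortex, 2 in oligodendrocytes and 5 in OPCs. With the replicate block they were 1 in CA3 and 12 in OPCs, and with the file date as a term 12 in OPCs. DESeq2 gave 1 in oligodendrocytes. Leaving out 1 mouse gave 0 to 1 in CA3, inhibitory neurons and OPCs. Leaving out 1 mouse gave 0 to 1 for the difference of the GKO effect between CA1 and dentate granule neurons and between inhibitory and excitatory neurons, an alternative chosen after seeing the data. The cause was not tested. In the J20 pair, scaling to UMIs per nucleus put 1 gene beyond the reference in inhibitory neurons, against 0. Of 448 member values of the cell type contrasts under alternatives, 19 changed sign, and 0 of the called ones did. Steps in the order of types that passed numbered 14 with the stricter filter, 17 without doublet calls and 15 with each nucleus scaled first, against 19. Leaving out 1 of the 8 mice, an alternative chosen after seeing the data, gave 0 such steps each time, since the lowest adjusted p was then 0.0521 to 0.0694. Leaving out 1 of the 8 mice gave 3 to 4 members called between CA1 and dentate granule neurons, 6 to 7 between CA3 and dentate granule neurons and between CA1 and CA3, and 5 between inhibitory and excitatory neurons. With 3 mice a group, small changes and the endothelial and Cajal-Retzius levels are the least certain values.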
